A study of Mus musculus with 11 samples.

Results

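Kinesins are motor proteins that use ATP to walk along microtubules. In neurons they carry vesicles, organelles and RNA out of the cell body into axons and dendrites, and kinesin-1 does this as a tetramer of heavy chains, which hold the motor, and light chains, which bind cargo. A separate set of kinesins builds and moves the mitotic spindle and completes cytokinesis, and these genes are mainly active in dividing cells. The genes described here are those whose mouse symbol is Kif followed by a number, together with the light chain genes Klc1 to Klc4. The table of 77179 gene IDs held 42 such genes. Of these, 36 reached 1 TPM (transcripts scaled to a fixed library total) in at least 2 of the 11 libraries and are described, among 19008 genes of any kind that did so. The symbols Kif16bos, Kif22-ps and Kif4-ps (an antisense RNA and pseudogenes) were left out, as was Kif1bp, which encodes a binding partner of a kinesin and no motor. All 19 transport kinesins, 10 of 12 mitotic kinesins and 7 of 11 other kinesins were described. The genes below the threshold were Kif14 and Kif2b (mitotic) and Kif6, Kif12, Kif24 and Kif28, and Kif2b was listed at 0 in each library.

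The study asked what excitatory neurons of the postnatal mouse forebrain translate. Polyadenylated RNA bound to GFP-tagged ribosomes was pulled down (IP) from cortex and hippocampus at postnatal day 7 (P7), P14 and P21, with 3 libraries at each age, and 2 libraries of whole-tissue lysate RNA (input) were made at P7. IP mice were NEX-Cre;Rpl10aeGFP/eGFP, so that Cre from the Neurod6 (NEX) gene, which is active in forebrain excitatory neurons, switched on the eGFP-tagged ribosomal protein Rpl10a. Input replicate 1 had the same genotype, and input replicate 2 was Rpl10aeGFP/eGFP with no Cre, so every library carried the Rpl10a allele and the 2 input libraries differed in Cre. The labels call the IP libraries biological replicates and do not say whether animals were pooled.

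TPM is scaled for length and for library size, so levels of different genes can be compared, but the read depth behind a value is unknown. Libraries held 15154 to 17793 genes at 1 TPM or above. The IP libraries held the excitatory neuron markers fixed for this work, with a summed level of 3268 to 3749 TPM over 8 genes at P7 against 2940 to 3060 TPM in input. Of these 8 genes, 3 were called higher in P7 IP than in input, 1 lower and 4 not. Their sum was at 6777 to 7619 TPM in P14 IP and 8054 to 9098 TPM in P21 IP. The genes did not rise as a set, since from P7 to P21 IP 4 were called higher and 4 lower, with a median log2 change of 0.03. Summed inhibitory neuron markers were at 799 to 952 TPM in input and at 80.5 to 90.1 TPM in P7 IP. Summed astrocyte markers were at 3066 to 3366 TPM in input, and in IP at 137 to 190 TPM at P7, 280 to 340 TPM at P14 and 410 to 541 TPM at P21. Summed oligodendrocyte markers were at 184 to 251 TPM in input, and in IP at 31.0 to 34.8, 295 to 401 and 505 to 729 TPM at the 3 ages. No marker of these lists was at 0 in any group. The IP libraries thus held RNA of astrocyte and oligodendrocyte markers at each age, and more of it at the later ages. Summed radial glia markers were at 1271 to 1294 TPM in input and lower in IP at the later ages. In IP they were at 95.4 to 116 TPM at P7, 50.8 to 61.0 TPM at P14 and 51.1 to 62.5 TPM at P21. These genes did not fall as a set. From P7 to P21 IP 1 of the 6 was called higher and 1 lower, with a median log2 change of 0.01.

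Summed over the 19 genes, transport kinesins made up 1561 ± 86.9 TPM in P7 IP, 1999 ± 73.7 TPM in P14 IP and 2475 ± 126 TPM in P21 IP (mean ± SD, n = 3 libraries at each age, as for every IP mean below). In P7 input they made up 2034 ± 100.2 TPM (n = 2, as for every input mean below). Mitotic kinesins made up 35.5 ± 2.72 TPM in input and 7.91 ± 1.41, 13.3 ± 2.74 and 12.1 ± 0.591 TPM in IP at the 3 ages. Without Kif22 they made up 24.5 ± 2.70 TPM in input and 4.54 ± 0.661, 4.10 ± 0.732 and 2.67 ± 0.399 TPM in IP, so the higher sums at P14 and P21 were those of Kif22. The other kinesins made up 78.6 ± 1.95 TPM in input and 66.5 ± 1.32, 52.2 ± 2.63 and 33.9 ± 2.63 TPM in IP. The Kif5a gene took a growing share of the transport class in IP, at 7.31% at P7, 23.2% at P14 and 40.7% at P21.

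Changes were tested gene by gene with limma on log2(TPM + 1) over the 19008 genes, and a gene was called where its Benjamini-Hochberg adjusted p was below 0.05. The fold changes that limma gives are on this log2(TPM + 1) scale and understate the change of low genes, while folds of means are given as plain ratios of TPM. From P7 to P21, 19 of 36 kinesins were called, against 59.9% of all genes tested, with 9 higher (27.3% of all genes) and 10 lower (32.6%) at P21. Under median-of-ratios scaling the split was 12 higher and 9 lower, and under quantile normalisation 10 and 11. The median log2 change was −0.16 over the 36 kinesins and −0.04 over all genes. Of the 19 transport kinesins 8 rose and 5 fell, of the 10 mitotic kinesins 1 rose and 1 fell, and of the 7 other kinesins none rose and 4 fell. From P7 to P14, 16 kinesins were called, 7 higher and 9 lower, against 49.5% of all genes (26.7% higher and 22.8% lower). Without P7 IP replicate 1 this count was 10, and under either other scaling 5 were higher and 10 lower. From P14 to P21, 12 were called, 4 higher and 8 lower, against 28.3% (8.53% higher and 19.7% lower), and the split was 7 and 5 under median-of-ratios scaling and 6 and 6 under quantile normalisation. The F test over the 3 ages called 21 of 36, against 62.6% of all genes. The comparisons between ages share libraries and are not independent of each other.

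**Figure D1:**
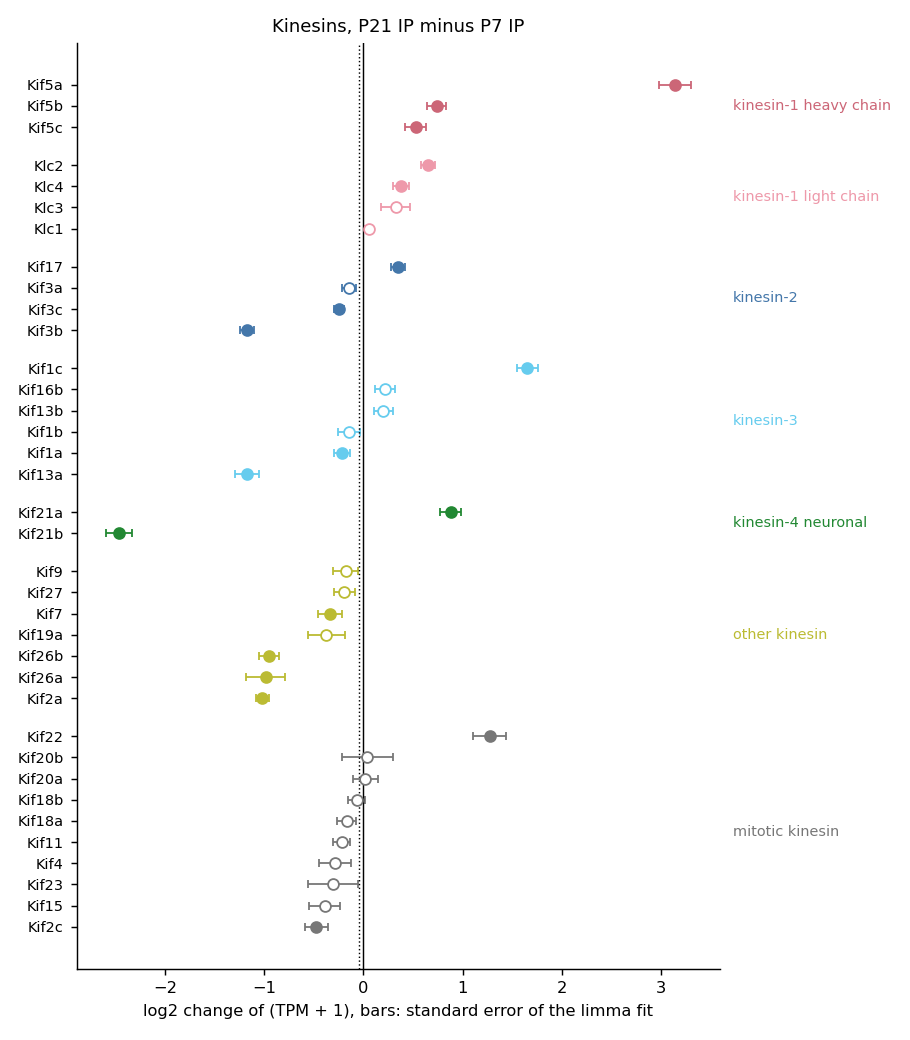
Log2 change of (TPM + 1) from P7 IP to P21 IP for each of the 36 kinesins, by family, with the standard error of the limma fit as bars; filled points passed the test, the solid line marks 0 and the dotted line the median of all genes tested (−0.04). Kif5a lies farthest to the right at 3.14, and Kif21b farthest to the left at −2.47.

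All 3 heavy chains of kinesin-1 rose from P7 to P21, at different steps, and Kif5a rose most. Kif5a, a neuronal heavy chain, was at 91.0, 127 and 126 TPM in the P7 IP libraries, at 578, 429 and 389.6 TPM at P14 and at 935, 1009 and 1077 TPM at P21. The 3 ages did not overlap, and the input libraries, at 229.8 and 194 TPM, lay between P7 and P14 IP. The mean at P21 was 8.78-fold that at P7 (log2 change 3.14 ± 0.16, SE, limma adjusted p = 6.6e-08). Kif5a was the 5th most abundant kinesin gene in P7 IP, the 2nd in P14 IP and the 1st in P21 IP. On the log2 scale the larger step came first, at 2.01 ± 0.16 from P7 to P14 and 1.13 ± 0.16 from P14 to P21. In TPM the means were 115, 466 and 1007, and the second step was the larger. The test of the log2 difference, given below, lost its call under several alternatives. The Kif5a gene overlaps Dctn2, a dynactin subunit gene, in the RefSeq annotation, and the sources used here do not say whether the counting used strand. Dctn2, named after its values were seen, was at 241 TPM in P7 IP and 183 TPM in P21 IP and fell by 0.39 on the log2 scale (adjusted p = 3.79e-05). The part of shared reads in the Kif5a values was not tested.

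Kif5b, the heavy chain found in most cell types, was at 16.0, 17.3 and 19.4 TPM in P7 IP, at 20.4, 19.3 and 17.7 TPM at P14 and at 27.1, 29.0 and 34.2 TPM at P21. The P7 and P14 libraries overlapped, and those of P21 lay above both. The change from P7 to P21 was 0.74 ± 0.10 (adjusted p = 6.6e-05), and that from P14 to P21 was 0.62 ± 0.10 (adjusted p = 0.00118). Kif5c, the other neuronal heavy chain, was at 121, 129 and 160 TPM at P7, at 171, 153 and 163 TPM at P14 and at 177, 192 and 222 TPM at P21. It rose by 0.53 ± 0.11 from P7 to P21 (adjusted p = 0.00136), with neither weekly step called (adjusted p up to 0.0374 with the replicate block and 0.0311 without P7 IP replicate 3, where both steps were called). The second step was also called under median-of-ratios scaling (adjusted p = 0.013). In input Kif5b was at 33.0 and 29.9 TPM and Kif5c at 191 and 186 TPM. The summed astrocyte and oligodendrocyte markers given above rose over the same IP libraries, and their part in the Kif5b values was not tested.

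Among the light chains, Klc1 was the most abundant kinesin gene in P7 and P14 IP and in input. It was at 577, 580.4 and 588 TPM in P7 IP, at 618, 621 and 662 TPM at P14 and at 603, 586 and 627 TPM at P21. Klc1 was not called between P7 and P21 (0.06 ± 0.04, adjusted p = 0.298), but was called higher under median-of-ratios scaling (0.13, adjusted p = 0.0199). It was called from P7 to P14 (0.12 ± 0.04, adjusted p = 0.0405), a call lost under both other scalings tried, under moderation without a trend, without the expression filter and on leaving out any 1 of the P7 or P14 IP libraries.

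Klc2 was at 119.6, 119 and 104 TPM in P7 IP, at 162, 159 and 145 TPM at P14 and at 185, 172 and 182 TPM at P21, with no overlap between the ages. It rose by 0.65 ± 0.07 from P7 to P21 (adjusted p = 1.82e-05). Klc4 rose from 7.70 ± 0.747 to 10.3 ± 0.356 TPM (0.38 ± 0.08, adjusted p = 0.0021). Klc3, the least abundant light chain, was at 0.825 ± 0.167 TPM at P7 and 1.29 ± 0.193 TPM at P21 and was not called (0.33 ± 0.15, adjusted p = 0.0762; 0.0382 without P14 IP replicate 1). Klc1, Klc3 and Klc4 overlap other protein-coding genes in RefSeq (Xrcc3, Ercc2 and Mrpl2), and how shared reads were assigned is not given. The same limit holds for Kif2a (Dimt1), Kif7 (Ticrr), Kif18a (Mettl15), Kif19a (Btbd17), Kif20a (Brd8 and Cdc23) and Kif21a (Gm52215). Over the libraries Brd8 was at 7.40 to 21.5 TPM and Cdc23 at 18.5 to 44.5 TPM, far above Kif20a.

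**Figure D2:**
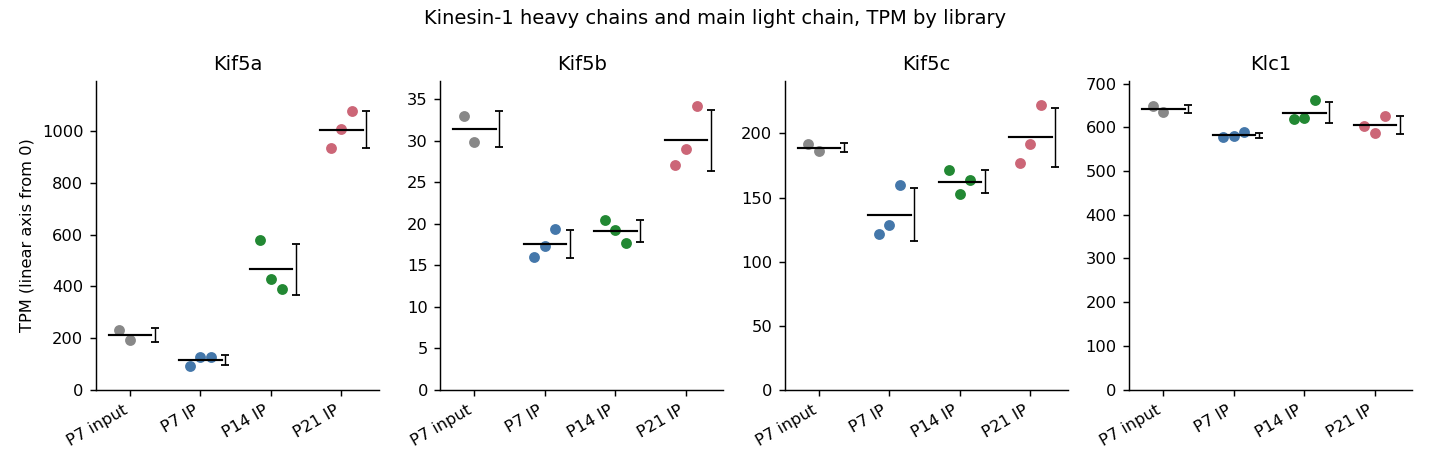
TPM of the kinesin-1 heavy chain genes Kif5a, Kif5b and Kif5c and of the light chain gene Klc1 in each library, on linear axes that start at 0; points are libraries, horizontal lines group means and bars SDs (n = 2 for input, n = 3 for each IP group). Kif5a reaches 935 to 1077 TPM at P21 from 91.0 to 127 TPM at P7, while Klc1 lies between 577 and 662 TPM in the 9 IP libraries.

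Ratios within a library do not depend on how the library was scaled. Kif5a made up 42.5 ± 3.47% of the summed heavy chain TPM in P7 IP, 71.6 ± 3.42% in P14 IP and 81.6 ± 0.736% in P21 IP, and 48.9 ± 2.37% in input. Kif5c made up 50.9 ± 3.23%, 25.4 ± 3.19% and 15.9 ± 0.623% in IP at the 3 ages, so that the order of the neuronal heavy chains turned between P7 and P14. Kif5b made up 6.57 ± 0.393%, 2.99 ± 0.294% and 2.43 ± 0.115%, a smaller share at P21 although its level rose. The summed light chains stood at 2.66 ± 0.401 times the summed heavy chains in P7 IP, at 1.26 ± 0.208 times in P14 IP and at 0.648 ± 0.0477 times in P21 IP, against 1.82 ± 0.0826 times in input. The Kif5a share and the light to heavy ratio each differed over the 3 ages in an exact permutation test of the 9 IP libraries (2-sided, p = 0.00357 for each, which stayed at 0.00357 adjusted over the 4 ratios tested). This is the smallest p that the 1680 arrangements allow. Ratios of RNA say nothing on the amounts of protein.

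**Figure D3:**
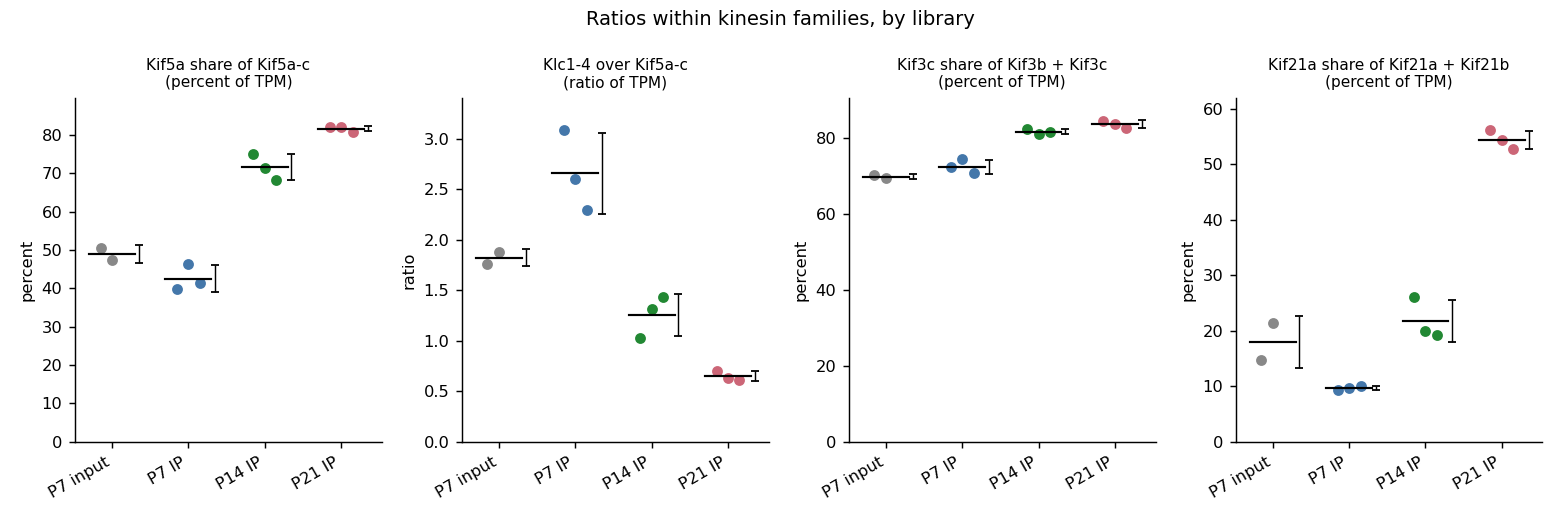
The 4 ratios tested, by library: the Kif5a share of Kif5a to Kif5c TPM, the light to heavy chain ratio, the Kif3c share of Kif3b and Kif3c TPM and the Kif21a share of Kif21a and Kif21b TPM, on linear axes that start at 0; points are libraries, lines group means and bars SDs (n = 2 for input, n = 3 for each IP group). In each panel the P7, P14 and P21 IP libraries form ranges that do not overlap.

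In kinesin-2, Kif3a pairs with either Kif3b or Kif3c, and the pair binds cargo through the accessory protein Kifap3. Kif3b fell at each step. It was at 49.3, 48.5 and 54.3 TPM in P7 IP, at 29.4, 33.5 and 32.3 TPM at P14 and at 21.2, 20.8 and 23.9 TPM at P21, with no overlap between the ages. The change from P7 to P21 was −1.17 ± 0.07 (adjusted p = 2.24e-07), and the mean at P7 was 2.31-fold that at P21. Kif3c was at 128, 140.3 and 131 TPM at P7, at 137, 142 and 143 TPM at P14 and at 115, 107 and 113 TPM at P21. It fell from P14 to P21 (−0.33 ± 0.05, adjusted p = 0.0014) and from P7 to P21 (−0.25 ± 0.05, adjusted p = 0.00199), and was not called from P7 to P14 (0.08 ± 0.05, adjusted p = 0.239).

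Kif3a, the common partner, was at 54.3 ± 3.90, 52.3 ± 2.27 and 49.0 ± 3.63 TPM at the 3 ages and was not called in any of the comparisons between ages. Without P7 IP replicate 1 it was called lower at P21 than at P7 (−0.20, adjusted p = 0.0309). Kif3c made up 72.4 ± 1.83% of the summed Kif3b and Kif3c TPM in P7 IP, 81.6 ± 0.679% in P14 IP and 83.6 ± 0.970% in P21 IP, against 69.7 ± 0.62% in input. That share differed over the 3 ages in the exact permutation test (p = 0.00357, the smallest possible). Kif17, which works as a homodimer and carries NMDA receptor vesicles in dendrites, rose from 9.83 ± 0.543 TPM at P7 to 12.8 ± 0.503 TPM at P21 (0.35 ± 0.07, adjusted p = 0.00162). The accessory gene Kifap3, named after its values were seen, was at 128 TPM in P7 IP and 104 TPM in P21 IP (−0.30 ± 0.05) and was called.

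The kinesin-3 family includes vesicle carriers, and its members moved in different directions. Kif1c, linked to Golgi and secretory vesicle traffic, was at 6.52, 6.57 and 6.47 TPM in P7 IP, at 13.7, 12.7 and 10.6 TPM at P14 and at 20.1, 26.4 and 21.7 TPM at P21. The ages did not overlap, and the mean rose 3.49-fold from P7 to P21 (1.65 ± 0.11, adjusted p = 3.19e-07). In input Kif1c was at 21.8 and 22.4 TPM, above P7 and P14 IP and within the range of P21 IP. The summed oligodendrocyte and astrocyte markers given above rose over the same libraries, and their part in the Kif1c values was not tested.

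Kif13a, a carrier of endosomal and Golgi-derived vesicles, fell. It was at 11.5, 13.9 and 14.7 TPM at P7, at 6.89, 7.24 and 9.69 TPM at P14 and at 5.37, 5.27 and 5.43 TPM at P21. The change from P7 to P21 was −1.17 ± 0.12 (adjusted p = 1.04e-05). Kif1a, the main carrier of synaptic vesicle precursors, was the most abundant kinesin-3 gene, at 128, 151 and 163 TPM at P7, at 144, 156 and 155 TPM at P14 and at 122, 124 and 133 TPM at P21. The P7 and P21 libraries overlapped, and the call from P7 to P21 (−0.21 ± 0.08, adjusted p = 0.043) was lost on leaving out any of 6 IP libraries, with adjusted p up to 0.162, and under median-of-ratios scaling. Kif1b (mitochondria and synaptic vesicle precursors), Kif13b and Kif16b (early endosomes) were not called in any of the comparisons between ages. Under median-of-ratios scaling Kif13b (adjusted p = 0.0385) and Kif16b (adjusted p = 0.0355) were called higher at P21 than at P7, and Kif16b also under quantile normalisation (adjusted p = 0.0346) and Kif13b under moderation without a trend (adjusted p = 0.0446). Their P7 and P21 means were 58.5 ± 10.2 and 52.5 ± 4.30 TPM for Kif1b, 1.1 ± 0.112 and 1.41 ± 0.152 TPM for Kif13b, and 2.02 ± 0.13 and 2.51 ± 0.277 TPM for Kif16b.

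The neuronal kinesin-4 genes Kif21a and Kif21b, whose products limit microtubule growth, moved in opposite directions. Kif21b was at 89.3, 98.6 and 113 TPM in P7 IP, at 56.3, 65.9 and 73.9 TPM at P14 and at 16.1, 16.9 and 18.8 TPM at P21, with no overlap between the ages. The mean at P7 was 5.80-fold that at P21 (−2.47 ± 0.13, adjusted p = 8.47e-08). Most of the fall came in the second step, at −1.85 ± 0.13 against −0.61 ± 0.13 in the first, and Kif21b moved from the 7th to the 14th place among the kinesins. Kif21a was at 9.24, 10.7 and 12.6 TPM at P7, at 20.0, 16.5 and 17.5 TPM at P14 and at 20.6, 20.2 and 21.0 TPM at P21. It rose by 0.88 ± 0.11 from P7 to P21 (adjusted p = 3.89e-05), and the P14 to P21 step was not called (0.19 ± 0.11, adjusted p = 0.218).

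Kif21a made up 9.73 ± 0.333% of the summed Kif21a and Kif21b TPM in P7 IP, 21.8 ± 3.82% in P14 IP and 54.4 ± 1.68% in P21 IP, against 18.1 ± 4.68% in input. The share differed over the 3 ages (exact permutation test, p = 0.00357, the smallest possible). At P21 Kif21a lay above Kif21b in each library.

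**Figure D4:**
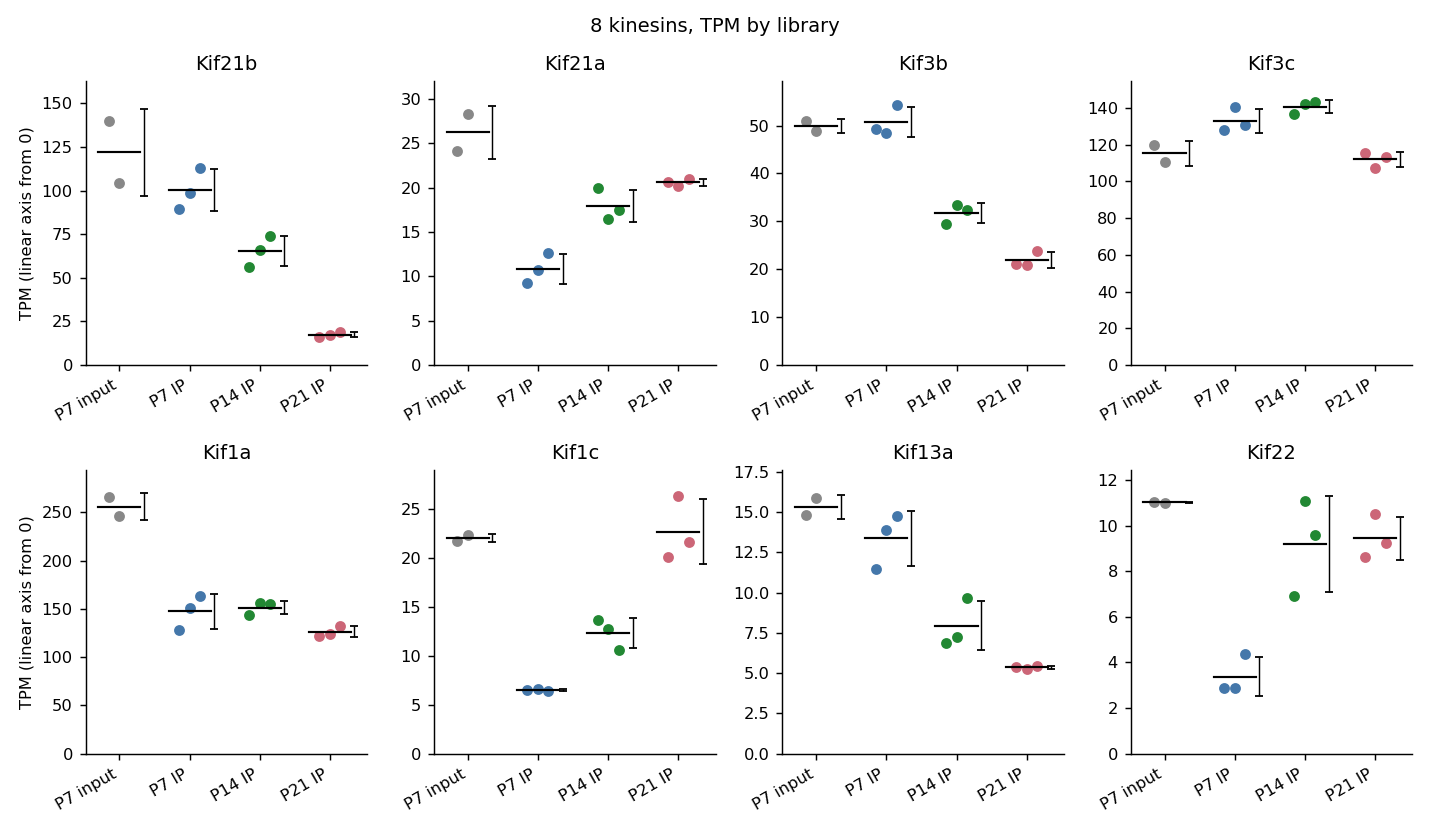
TPM of 8 kinesins in each library, on linear axes that start at 0; points are libraries, lines group means and bars SDs (n = 2 for input, n = 3 for each IP group). Kif21b falls from 89.3 to 113 TPM at P7 to 16.1 to 18.8 TPM at P21, Kif3b and Kif13a fall, Kif21a, Kif1c and Kif22 rise, and Kif1a overlaps between P7 and P21.

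The weekly steps could also be compared directly. The second step differed from the first for 4 of 36 kinesins, against 24.3% of all genes (7.46% higher and 16.8% lower), and in each of the 4 the second minus first difference was negative. Under median-of-ratios scaling 2 were higher and 2 lower, and under quantile normalisation 2 and 3. For Kif5a it was −0.88 ± 0.28 (adjusted p = 0.0423), for Kif21b −1.24 ± 0.23 (adjusted p = 0.00337), for Kif3c −0.41 ± 0.09 (adjusted p = 0.00964) and for the mitotic kinesin gene Kif22 −1.16 ± 0.29 (adjusted p = 0.0153). The median over all genes was −0.10. On the log2 scale Kif5a and Kif22 rose more in the first week, Kif21b fell more in the second, and Kif3c fell in the second. The Kif5a call was lost under both other scalings (adjusted p of 0.0892 and 0.0626), without the expression filter (adjusted p = 0.134), with the replicate block (adjusted p = 0.0728), under moderation without a trend (adjusted p = 0.0589) and on leaving out 1 of 5 IP libraries in turn, with adjusted p up to 0.179. Under the other scalings Kif21b and Kif22 kept their calls, and Kif3c was called under quantile normalisation and not under median-of-ratios scaling (adjusted p = 0.0704). The Kif22 call was lost without the expression filter (adjusted p = 0.0522) and without P14 IP replicate 2 or 3 (adjusted p of 0.0763 and 0.0577). Without P14 IP replicate 2, 2 kinesins were called, and without the expression filter 2.

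Among the kinesins of other function 4 fell from P7 to P21. Kif2a, a depolymerase that trims axon branches, was at 51.2, 53.3 and 53.9 TPM in P7 IP, at 38.2, 40.8 and 42.3 TPM at P14 and at 24.8, 24.0 and 28.2 TPM at P21. The ages did not overlap, and the change was −1.02 ± 0.07 (adjusted p = 3.41e-07). Kif26a and Kif26b, whose products bind microtubules without motor activity and act in signalling, fell from 2.56 ± 0.281 to 0.799 ± 0.0960 TPM (−0.98 ± 0.19, adjusted p = 0.0012) and from 2.31 ± 0.25 to 0.708 ± 0.0221 TPM (−0.95 ± 0.10, adjusted p = 1.11e-05). Kif7, a ciliary regulator of Hedgehog signalling, was at 0.745 ± 0.179 TPM at P7 and 0.38 ± 0.0846 TPM at P21, below 1 TPM in each IP library (−0.34 ± 0.12, adjusted p = 0.0329). The Kif7 call was lost without the expression filter and on leaving out any of 4 IP libraries, with adjusted p up to 0.114. The genes linked to motile cilia, Kif9, Kif19a and Kif27, were at 3.18, 2.44 and 1.25 TPM in P7 IP and at 2.68, 1.67 and 0.974 TPM in P21 IP and were not called between P7 and P21, although Kif19a was in a fit of those 2 groups alone (adjusted p = 0.0195). Kif9 and Kif19a fell from P14 to P21 (adjusted p of 0.0368 and 0.0462), and both calls were lost under each other scaling.

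Mitotic kinesins were tested from libraries in which most of them were low. Of the 10 described, 7 (Kif11, Kif15, Kif18a, Kif18b, Kif20a, Kif20b and Kif2c) reached 1 TPM in the input libraries alone, as did Kif7, so these passed the threshold through input and a lower value in IP follows from that. Kif11, the motor that separates the spindle poles, was at 2.29 and 2.48 TPM in input and at 0.452, 0.45 and 0.519 TPM in P7 IP. Kif15, which backs up Kif11, was at 8.36 and 6.56 TPM in input and at 0.825, 0.414 and 0.98 TPM in P7 IP. It was called lower at P14 than at P7 (−0.50 ± 0.16, adjusted p = 0.0214), at 0.385, 0.175 and 0.104 TPM. That call was lost without the expression filter, with a pseudocount of 5 TPM, without P7 IP replicate 1 or 3 and without P14 IP replicate 2 or 3. From P7 to P21 Kif15 was not called, but was called lower with the replicate block (adjusted p = 0.0232). Kif2c, a depolymerase at centromeres, was at 1.92 and 1.80 TPM in input and at 0.645, 0.28 and 0.519 TPM in P7 IP, and fell to 0.0521, 0.0909 and 0.0439 TPM at P21 (−0.47 ± 0.11, adjusted p = 0.00392). Kif18a and Kif18b (chromosome alignment and spindle microtubule length) and Kif20a and Kif20b (cytokinesis) lay between 1.01 and 3.16 TPM in input and between 0.0683 and 0.843 TPM in P7 IP.

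The mitotic genes that reached 1 TPM in IP as well were Kif22, Kif23 and Kif4. Kif22, a chromokinesin that pushes chromosome arms, was at 11.0 TPM in both input libraries, at 2.87, 2.88 and 4.36 TPM in P7 IP, at 6.90, 11.1 and 9.59 TPM at P14 and at 8.62, 10.5 and 9.22 TPM at P21. It was lower in P7 IP than in input (−1.48 ± 0.19, adjusted p = 4.13e-05) and rose 2.81-fold from P7 to P21 (1.27 ± 0.17, adjusted p = 6.54e-05). It was the only mitotic kinesin called higher at P21, and at P21 it made up most of the summed level of its class. Summed astrocyte and oligodendrocyte markers rose over the same IP libraries while the sum of radial glia markers fell. The part of these cells in the Kif22 values was not tested. Kif23, a part of the centralspindlin complex of cytokinesis, was at 4.24 and 3.52 TPM in input, at 0.621, 0.285 and 0.857 TPM in P7 IP, at 0.246, 1.71 and 1.24 TPM at P14 and at 0.296, 0.305 and 0.208 TPM at P21. The P14 libraries overlapped those of P7 and P21, and Kif23 was not called between ages. Without P14 IP replicate 1 it was called higher at P14 than at P7 (0.65, adjusted p = 0.011) and lower at P21 than at P14 (−0.96, adjusted p = 0.00332). Kif4, a second chromokinesin, was at 1.86 and 1.52 TPM in input and at 1.28, 0.855 and 0.596 TPM in P7 IP (−0.51 ± 0.18, adjusted p = 0.0262). The call was lost under both other scalings, with a difference of −0.0013 under quantile normalisation. It was also lost without the expression filter (adjusted p = 0.064) and without P7 IP replicate 2 or 3 (adjusted p of 0.0575 and 0.0839). Nor was the call kept without input replicate 1 (difference −0.41) or input replicate 2 (−0.60), fits in which the input group has no replicate.

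The cell division genes fixed as a list, none of them kinesins, were lower in P7 IP than in input in 19 of the 19 tested, against 51.1% of all genes. Such genes too can pass the threshold through input alone, which fixes that direction. How many did so is not given here, so nothing is drawn from this count. From P7 to P21, 11 of them fell (32.6% of all genes did) and 1 rose (27.3%). The gene that rose was Incenp, a chromosomal passenger subunit, from 4.48 to 16.0 TPM. The proliferation marker Mki67 was at 2.63 TPM in input and at 0.226, 0.242 and 0.178 TPM in IP at the 3 ages. Cdk1, the mitotic kinase, was at 13.0 TPM in input and 0.228 TPM in P7 IP.

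Promoters of the mitotic genes are shown because many genes of the spindle are known to carry a cell cycle homology region element and CCAAT boxes near their start. Windows from 250 bases before to 50 bases after the first listed start came from RefSeq (build GRCm38.p6) and matched 34 of the 42 genes. The element was searched as TTTGAA or TTCGAA and the CCAAT box as CCAAT, each on both strands (TTCAAA and ATTGG on the other strand), and matches were counted separately where they overlapped. TTTGAA or TTCGAA was found in 9 of 11 mitotic promoters, 0 of 14 transport promoters and 3 of 9 other kinesin promoters, and in 19.4% of the 27025 promoters in the table. CCAAT was found in 7 of 11, 5 of 14 and 4 of 9, and in 37.9% of all promoters. Both were found in 6 of 11, 0 of 14 and 3 of 9, and in 7.7% of all promoters. A match describes letters and shows no binding. Kif11 (chr19:37376132-37376431, plus strand), Kif22 (chr7:127042371-127042670, minus strand), Kif23 (chr9:61946750-61947049, minus strand) and Kif4 (chrX:100625815-100626114, plus strand) hold both motifs. Kif3c (chr12:3364882-3365181, plus strand), a transport gene with neither, is given for comparison. Each window is written along its own strand, 5′ to 3′, and capitals mark the motif letters on either strand.
Kif11: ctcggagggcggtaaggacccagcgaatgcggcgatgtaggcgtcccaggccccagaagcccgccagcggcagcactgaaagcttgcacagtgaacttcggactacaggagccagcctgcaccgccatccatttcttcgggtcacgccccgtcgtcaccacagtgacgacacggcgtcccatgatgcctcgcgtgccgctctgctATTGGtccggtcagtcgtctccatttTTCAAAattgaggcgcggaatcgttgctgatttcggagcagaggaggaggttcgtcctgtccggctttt
Kif22: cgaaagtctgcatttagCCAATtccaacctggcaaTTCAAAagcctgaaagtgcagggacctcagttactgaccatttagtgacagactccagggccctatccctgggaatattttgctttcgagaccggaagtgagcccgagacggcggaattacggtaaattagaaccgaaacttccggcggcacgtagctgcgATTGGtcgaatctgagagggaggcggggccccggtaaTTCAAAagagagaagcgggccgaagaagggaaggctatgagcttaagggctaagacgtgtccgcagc
Kif23: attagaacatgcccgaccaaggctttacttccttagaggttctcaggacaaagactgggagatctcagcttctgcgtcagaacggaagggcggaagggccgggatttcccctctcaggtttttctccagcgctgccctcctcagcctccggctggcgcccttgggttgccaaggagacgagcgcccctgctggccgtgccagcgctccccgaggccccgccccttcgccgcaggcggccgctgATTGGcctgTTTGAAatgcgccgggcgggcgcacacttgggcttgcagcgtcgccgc
Kif4: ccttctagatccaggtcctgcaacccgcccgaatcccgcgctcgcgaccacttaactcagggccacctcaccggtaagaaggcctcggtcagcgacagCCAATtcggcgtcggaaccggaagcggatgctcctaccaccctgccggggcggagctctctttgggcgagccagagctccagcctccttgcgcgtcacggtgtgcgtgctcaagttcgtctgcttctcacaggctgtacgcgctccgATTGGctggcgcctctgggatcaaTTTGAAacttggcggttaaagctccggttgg
Kif3c: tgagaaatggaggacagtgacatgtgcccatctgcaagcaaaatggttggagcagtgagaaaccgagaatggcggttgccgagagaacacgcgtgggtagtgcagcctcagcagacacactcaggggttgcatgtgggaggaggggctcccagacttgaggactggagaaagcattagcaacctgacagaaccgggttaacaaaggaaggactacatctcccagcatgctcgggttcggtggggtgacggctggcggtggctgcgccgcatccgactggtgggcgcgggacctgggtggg
In the Kif11 window the CCAAT box starts 45 bases and the element 19 bases before the gene start, and in the Kif22 window the nearer pair starts 54 and 17 bases before it. In the Kif23 window the pair lies at the start itself.

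At P7 the IP libraries were compared with whole tissue. Of 36 kinesins, 26 were called, 1 higher and 25 lower in IP, against 69.8% of all genes called (18.6% higher and 51.1% lower). Under median-of-ratios scaling the split was 7 higher and 19 lower. Under quantile normalisation Kif3c, Kif4, Kif16b, Kif18a, Kif26a, Kif26b and Klc4 lost their calls. Kif9 and Kif17 were called higher there, and Klc2 and Kif21b lower. In the main fit the median log2 difference was −0.68 over the 36 kinesins and −0.33 over all genes. These figures include the 8 genes that passed the threshold through input alone and had to be lower in IP. Among genes at 1 TPM in at least 1 IP library, a selection made after the data were seen, 18 of 28 kinesins were called, 1 higher and 17 lower, against 67.7% of all such genes (19.9% higher and 47.8% lower). Their median was −0.52, and that of all such genes −0.27. In whole tissue, fewer cells that express a gene and less RNA per cell cannot be told apart. Of the transport kinesins, Kif1c (−1.62 ± 0.12), Kif21a (−1.21 ± 0.12) and Kif13b (−0.97 ± 0.11) were lowest in IP relative to input. Kif5a (−0.89 ± 0.18), Kif5b (−0.81 ± 0.11), Kif1a (−0.80 ± 0.09), Kif1b (−0.80 ± 0.12) and Kif3a (−0.76 ± 0.08) followed, each with an adjusted p at or below 0.0011.

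Kif3c was the kinesin called higher in IP, at 128, 140.3 and 131 TPM against 120.0 and 110.4 TPM in input (0.21 ± 0.06, adjusted p = 0.0094). The call was lost without input replicate 2, the library with no Cre (0.15, adjusted p = 0.112), and under quantile normalisation. Kif3b (0.02 ± 0.08), Kif17 (0.07 ± 0.08) and Kif9 (0.08 ± 0.14) were not called, but each was called higher under median-of-ratios scaling, which moves the median of all genes by 0.33. Kif2a (−0.10 ± 0.07), Klc1 (−0.14 ± 0.05) and Klc2 (−0.18 ± 0.08) turned to higher in IP under that scaling, at 0.31, 0.27 and 0.23, so no direction is drawn for them. Kif26b and Kif16b, called lower at −0.55 ± 0.11 and −0.53 ± 0.12, were at 0.03 and 0.05 under quantile normalisation. Without either input library 17 of 28 kinesins were called, since the 8 genes at 1 TPM in input alone no longer reached the threshold.

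**Figure D5:**
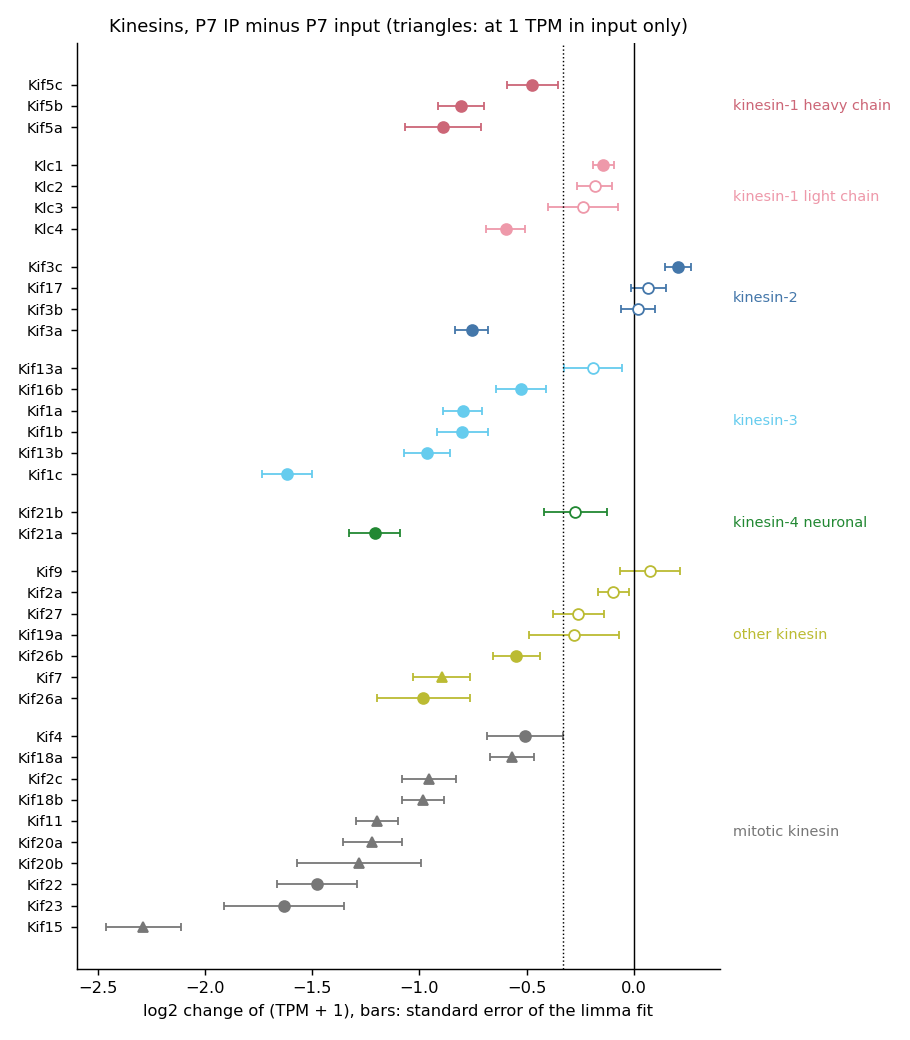
Log2 difference of (TPM + 1) between P7 IP and P7 input for each of the 36 kinesins, by family, with the standard error of the limma fit as bars; filled points passed the test, the solid line marks 0 and the dotted line the median of all genes tested (−0.33). Triangles mark the 8 genes at 1 TPM in input alone (Kif7, Kif11, Kif15, Kif18a, Kif18b, Kif20a, Kif20b and Kif2c), whose lower value follows from the threshold. Among the circles Kif23 (−1.63) and Kif1c (−1.62) lie farthest to the left, and Kif3c is the 1 filled point to the right of 0 at 0.21.

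The partners of the kinesins were counted from lists. Of 30 adaptors and regulators that link kinesins to cargo, 13 rose (27.3% of all genes did) and 10 fell (32.6%) from P7 to P21, so 23 were called against 59.9% of all genes. The largest rises were in Plekhm2 (SKIP), which joins kinesin-1 to lysosomes, from 11.2 to 36.5 TPM, and in Clstn1, a light chain cargo, from 299 to 612 TPM. The largest falls were in Grip1, an AMPA receptor scaffold that binds Kif5, from 13.4 to 5.45 TPM, and in Arl8a, a lysosomal GTPase, from 641 to 339.7 TPM. A list of 28 genes held subunits of dynein and dynactin, which move cargo the other way, together with their adaptors and regulators, such as Hook2. Of these 28, 9 rose and 9 fell, a share called near the 59.9% of all genes. Rises were largest in Actr1b (105 to 252 TPM) and Dynll2 (428 to 898 TPM). The largest falls were in Hook2 (12.9 to 4.33 TPM) and Dync1i2 (95.8 to 42.3 TPM). Of the 6 kinesin genes outside the symbol rule, Kifc2, a minus-end directed neuronal kinesin, rose from 283 to 563 TPM, and 3 fell, among them Kifc3 (25.0 to 18.1 TPM) and Kifc1 (1.04 to 0.519 TPM).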

How the data were processed

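Expression came as TPM in a single table deposited by the authors, with 77179 gene IDs for 11 libraries. The submitters' processing notes name Salmon 1.10.0, fastp 1.0.1 and DESeq2 1.46.0 as tools and mm39 as build, with no role for any of them. The sources used here give neither the annotation release nor the use of strand. Read depth is unknown, since TPM keeps none. Symbols were matched for 50886 IDs. Genes reaching 1 TPM in 2 or more libraries were kept, and log2(TPM + 1) was fitted with limma 3.58.1 (R 4.3.3; moderated, with a trend) with 1 mean per group over the 11 libraries, which leaves 7 residual degrees of freedom. P-values were adjusted by Benjamini-Hochberg over the 19008 genes. The 4 ratios were tested by exact permutation over the 9 IP libraries. Scripts were tested on simulated data. P-values measure the spread between these libraries only. The kinesins, the families and the gene lists were chosen with earlier results of these data known. Every described kinesin could be named, and up to 2 genes with the largest rise and 2 with the largest fall in each other list. Kif1bp was counted among the adaptors. Alternatives were other pseudocounts, filters, scalings and moderation, a block by replicate number, fits of the compared groups alone, and each library left out.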

Additional observations from a re-analysis of the deposited data

Results flagged for a closer look

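For 4 kinesins the change from P14 to P21 differed from the change from P7 to P14 in the limma test of the difference itself. On the log2(TPM + 1) scale the second minus first difference was −1.16 for Kif22, with steps of 1.22 and 0.05, and −0.88 for Kif5a, with steps of 2.01 and 1.13. It was −0.41 for Kif3c, with steps of 0.08 and −0.33, and −1.24 for Kif21b, with steps of −0.61 and −1.85. Both steps use the P14 libraries with opposite signs, so a P14 library that stands apart moves the difference. Kif21b was called under each alternative tried, and the call of each of the other 3 was lost under at least 1.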

How the results depend on the processing

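Over 36 kinesins, 5 contrasts and each alternative, 3393 values were recomputed. Of these, 3175 kept their side of the threshold, and changes of sign with no call in either fit count among them. A further 140 lost and 73 gained a call, and 5 changed sign with a call in the main fit or the alternative. These 5 were all in P7 IP against input. Under median-of-ratios scaling Klc1, called lower in the main fit, was called higher (0.27). Kif2a (0.31) and Klc2 (0.23), not called in the main fit, were also called higher there. Under quantile normalisation Kif26b (0.0339, adjusted p = 0.801) and Kif16b (0.0454, adjusted p = 0.725) lost their calls. These scalings moved the median of all genes there by 0.33 and 0.36, and that of the step difference by 0.13 and 0.11. With a filter on the mean at 5 TPM, 18 kinesins were tested in IP against input and 12 called, against 26 of 36. Without the expression filter 10 were called from P7 to P14 (16 with it) and 2 in the step difference (4 with it). Leaving out 1 library gave 17 to 26 calls in IP against input (17 of 28 tested without either input library, against 26 of 36, and 18 of 28 among genes at 1 TPM in at least 1 IP library, an alternative added after seeing the data), 10 to 15 from P7 to P14 (10 without P7 IP replicate 1), 9 to 13 from P14 to P21, 17 to 20 from P7 to P21, 17 to 22 in the F test and 2 to 5 in the step difference (2 without P14 IP replicate 2). The higher and lower split was 7 and 19 in IP against input under median-of-ratios scaling, 5 and 10 from P7 to P14 under either scaling, 7 and 5 (median of ratios) or 6 and 6 (quantile) from P14 to P21, 12 and 9 or 10 and 11 from P7 to P21, and 2 and 2 or 2 and 3 in the step difference. Over the alternatives that leave out a library, the P21 minus P7 difference of the Kif5a share ran from 37.8 to 41.1 percentage points, of the Kif3c share from 10.3 to 12.2, of the Kif21a share from 43.9 to 45.5, and of the light to heavy ratio from −2.19 to −1.80. Deviations of same-numbered libraries from their group means correlated at r from −0.10 to 0.18, against −0.17 to 0.17 for other numbers. Among IP libraries alone r ran from 0.012 to 0.18 for the same number and from −0.12 to 0.10 for other numbers. With 2 or 3 libraries in a group, these values cannot decide whether the numbers pair libraries. With the replicate block 27, 15, 14, 20, 4 and 21 kinesins were called (IP against input, P7 to P14, P14 to P21, P7 to P21, step difference and F test); the Kif5a step difference lost its call (adjusted p = 0.0728) and both weekly steps of Kif5c gained one (0.029 and 0.0374). Each ratio had a permutation p within blocks of 0.0278, the smallest that 216 arrangements allow. Low values limit the mitotic genes most: below 1 TPM the pseudocount and the filter set the size of a change, and the depth behind it is unknown.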
